A study of Mus musculus with 13 samples.

Results

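The 10 genes described here encode the cohesin ring and its loaders, releasers and binding partners: Stag1, Stag2, Smc1a, Smc3, Rad21, Nipbl, Wapl, Pds5a, Pds5b and Ctcf. They were chosen by name, and every ChIP-seq peak of the 12 deposited lists that touched a gene's span or the 10 kb on either side, on the mouse build mm10, was taken. The 10 windows held 289 of the 563452 peaks, which merged into 65 of the 114651 sites of the series (peaks of any library that share at least 1 bp), for 10 of 21900 protein-coding genes. All cells were NU1, a mouse urothelial line of WT genotype that became immortal through passaging, so every library comes from 1 line. Quiescent cells had been grown to confluence and then kept in complete medium with 1 uM rosiglitazone, a PPAR gamma agonist, and 0.5 uM erlotinib, an inhibitor of the EGF receptor kinase. Proliferating cells were kept in complete medium. Antibodies against STAG2, STAG1 or CTCF were each used on quiescent and on proliferating cells with 2 biological replicates, with 25 ug of antibody and 550 ug of chromatin an assay. The labels give neither the duration of quiescence nor the passage. Peak lists hold no expression, so the urothelial identity of the cells was not checked here.

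Cohesin is a ring of SMC1A, SMC3 and RAD21 that carries either STAG1 or STAG2 and extrudes or entraps DNA. NIPBL drives its loading and loop extrusion, WAPL with PDS5A or PDS5B releases it, and CTCF, a zinc finger protein that reads a directional DNA motif, halts it at loop anchors. STAG2 is a tumour suppressor of the urothelium, and the study set the binding of the STAG proteins and CTCF in quiescent cells beside that in proliferating cells. The question followed here is where these proteins sat at the genes that encode them and their partners.

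The promoters of 7 of the 10 genes were found in the RefSeq promoter table (GRCm38.p6), which gives the first transcribed base and its strand. No entry was found for Stag2, Rad21 and Nipbl. The 250 bases before the first base are shown for 4 genes, because their peaks differ in strength and in distance from it. Pds5b lies at chr5:150673577-150673826 on the plus strand and Stag1 at chr9:100643198-100643447 on the plus strand. Pds5a lies at chr5:65698237-65698486 on the minus strand and Smc1a at chrX:152016178-152016427 on the plus strand. Each is printed 5′ to 3′ along the gene, and capitals mark matches, on either strand, to a CTCF core (CC, any 3 bases, AG, any 2 bases, GGC), to E2F sites (TTTCCCGC or TTTGGCGC) or to the CHR element of cell cycle genes (TTTGAA).
Pds5b: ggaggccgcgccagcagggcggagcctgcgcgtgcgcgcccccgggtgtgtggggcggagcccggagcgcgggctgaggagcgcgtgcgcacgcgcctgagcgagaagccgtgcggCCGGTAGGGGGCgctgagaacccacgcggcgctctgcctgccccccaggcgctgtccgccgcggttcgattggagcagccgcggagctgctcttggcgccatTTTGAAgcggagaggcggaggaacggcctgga
Stag1: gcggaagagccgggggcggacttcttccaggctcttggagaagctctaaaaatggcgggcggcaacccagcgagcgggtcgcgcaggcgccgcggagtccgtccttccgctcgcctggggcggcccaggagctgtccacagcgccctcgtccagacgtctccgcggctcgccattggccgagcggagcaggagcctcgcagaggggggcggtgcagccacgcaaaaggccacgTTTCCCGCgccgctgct
Pds5a: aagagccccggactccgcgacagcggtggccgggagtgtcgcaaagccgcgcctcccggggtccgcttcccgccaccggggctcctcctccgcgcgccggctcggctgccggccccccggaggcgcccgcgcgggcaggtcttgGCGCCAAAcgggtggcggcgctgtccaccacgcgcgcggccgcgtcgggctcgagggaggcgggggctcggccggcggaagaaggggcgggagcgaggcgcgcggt
Smc1a: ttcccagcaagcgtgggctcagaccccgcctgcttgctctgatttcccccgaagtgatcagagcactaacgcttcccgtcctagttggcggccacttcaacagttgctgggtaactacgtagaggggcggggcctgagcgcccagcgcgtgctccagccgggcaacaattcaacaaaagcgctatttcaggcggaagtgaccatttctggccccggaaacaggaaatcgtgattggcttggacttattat

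Of these 7 promoters, Pds5b alone matched the CTCF core, as CCGGTAGGGGGC at -134 to -123 from the first base, and the main summit (the one of highest fold) of all 12 libraries fell around it, at -153 to -92. The core letters occur in 7.17% of the 32851 promoters of the table. Stag1 held TTTCCCGC at -17 to -10, a match found in 0.895% of promoters, and its 12 main summits lay inside the gene at 80 to 152. Pds5a held TTTGGCGC on the opposite strand, at -106 to -99, and 0.417% of promoters match it. Pds5b at -32 to -27 and Ctcf at -161 to -156 matched TTTGAA, which 16.0% of promoters do. Smc3, Wapl and Smc1a matched none of the 4 motifs in this stretch. The matches did not overlap one another, and they describe letters, not binding.

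The deposited lists differed in length. They held 38407 and 34281 STAG2 peaks in quiescent cells, against 47295 and 45582 in proliferating cells. For STAG1 they held 35594 and 36680 peaks in quiescent cells, against 38857 and 50468 in proliferating cells. For CTCF they held 51835 and 71757 peaks in quiescent cells, against 57528 and 55168 in proliferating cells. The list of CTCF quiescent replicate 2 stands apart by its length, and 19 of the 26 sites of the 10 windows that were called in a single library were its own. Read totals are not in the lists, so the depth behind a peak is unknown and a missing peak means that no peak was called. Fold enrichments below are the authors' values, and are used only to describe and rank peaks inside a list.

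Among the 65 sites, those with CTCF peaks alone were the largest set, and the share called by all libraries was near that of the genome. All 12 libraries called 10 sites (15.4%, against 15.9% of all sites of the genome). Another 42 sites (64.6%, against 35.4% of all sites) had a CTCF peak in at least 1 library and no STAG peak in any. Without CTCF quiescent replicate 2 this set numbered 23 of 46 sites (50%, against 27.6% of all sites). A STAG peak was present at 23 sites, 17 of them with CTCF and 6 without it in any library. The sites called in all 12 libraries were wide, from 897 to 2833 bp. Of these 10 sites, 6 lay within 1 kb of a gene start or, where no start was given, of a gene end. The windows were placed around genes, and no share over such sites of the genome stands beside this count. Widths of the CTCF-only sites did not exceed 725 bp. A site's width spans all its merged peaks, so it can grow with the number of libraries that call it. Of the 42 CTCF-only sites, 38 lay inside a gene's span, where gene spans make up 85.0% of the window bases. The quiescent CTCF libraries called 15 and 37 of the 42, and the proliferating ones 12 and 15.

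**Figure D1:**
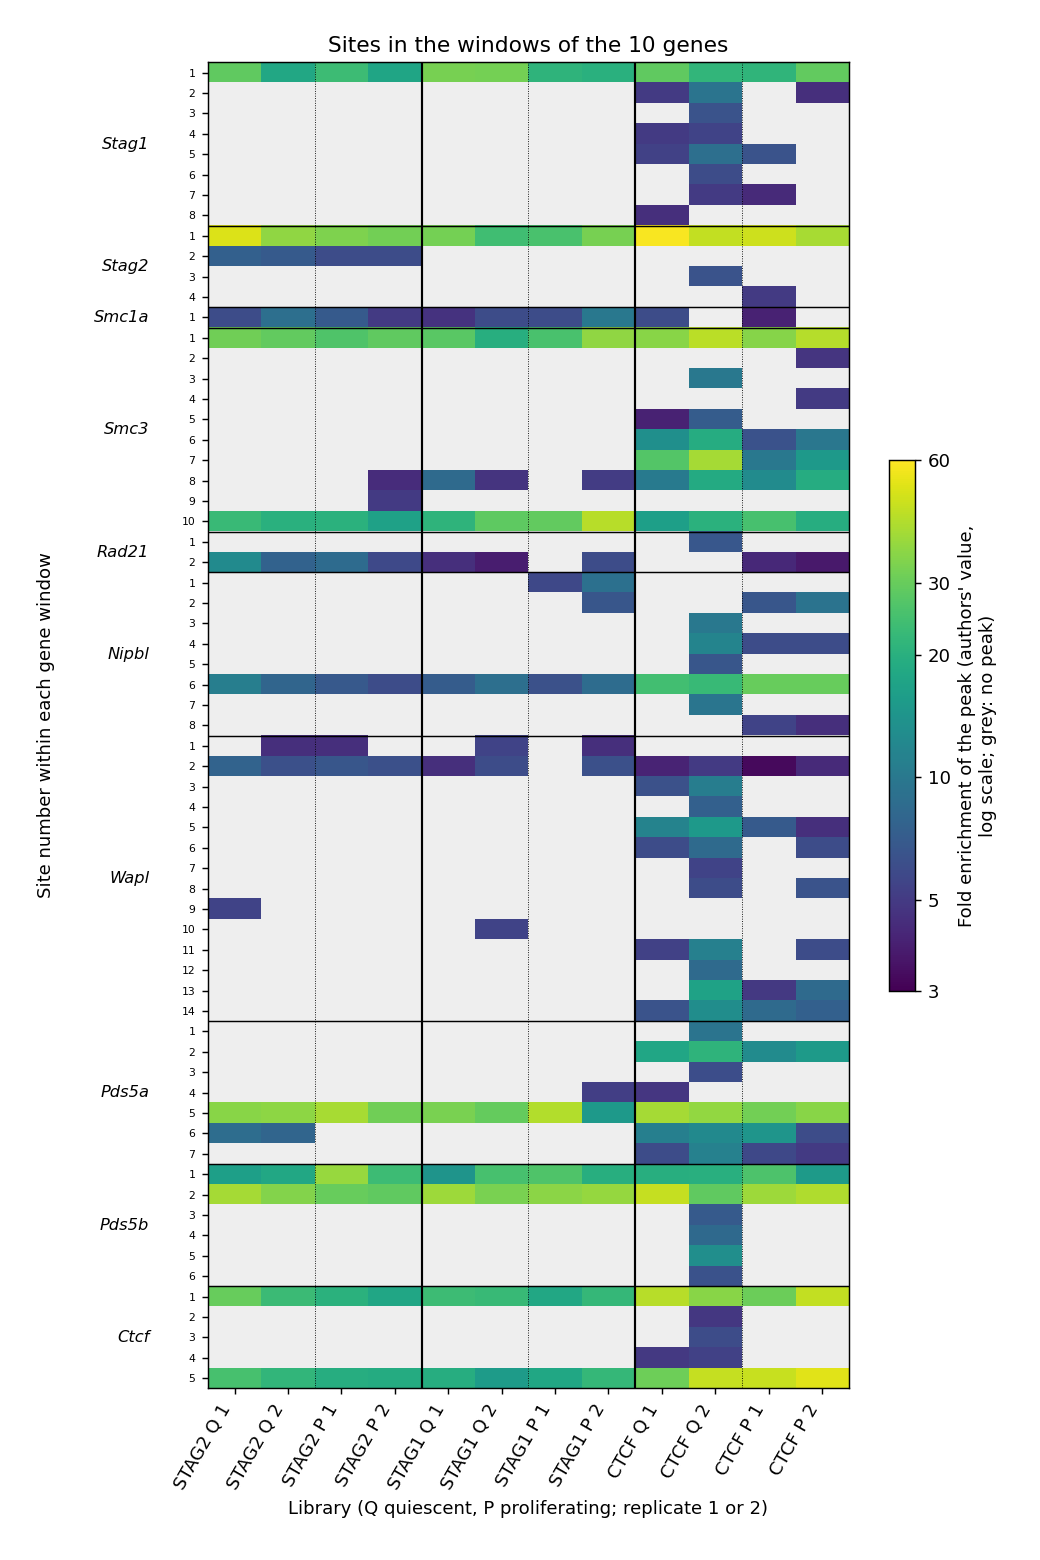
Fold enrichment (the authors' value, log colour scale) of the strongest peak of each library (columns) at each of the 65 sites (rows, numbered within each gene window); grey means that no peak was called. Bands that run across all 12 columns are the 10 shared sites, and the rows filled in the CTCF columns alone are the 42 CTCF-only sites, most of them in CTCF quiescent replicate 2.

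The ring genes differed from one another. Smc3, which encodes one of the SMC arms of the ring, had its leading site (the one whose fold percentile, averaged over the libraries with a missing peak as 0, was highest) at chr19:53599391-53601492, across its start. STAG2 folds there were 31.5 and 29.3 in quiescent cells, against 26.3 and 28.9 in proliferating cells. STAG1 folds were 28.0 and 19.7 in quiescent cells, against 25.4 and 36.6 in proliferating cells. CTCF folds were 35.4 and 44.0 in quiescent cells, against 34.9 and 43.1 in proliferating cells. Every library ranked it high, between percentiles 79.8 and 96.6 of fold in its own list, the lowest being STAG1 quiescent replicate 2. Main summits kept within 113 bp, at -489 to -376 from the first base, upstream of the stretch searched for motifs. A second site called by all libraries lay 2774 bp beyond the other end of Smc3, at chr19:53648605-53650251, with folds of 16.3 to 43.4.

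Smc1a, the gene of the partner SMC arm, carried a single site in its window, at chrX:152015854-152017197 across its start, and it was weak. STAG2 folds were 5.99 and 8.98 in quiescent cells, against 6.99 and 4.99 in proliferating cells. STAG1 folds were 4.67 and 5.99 in quiescent cells, against 5.99 and 9.98 in proliferating cells. A CTCF peak was called in 1 library of each state, with a fold of 5.99 in quiescent replicate 1 and of 4.00 in proliferating replicate 1. The site also covers Ribc1, a neighbouring protein-coding gene, so it cannot be given to either gene.

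Rad21, the gene of the kleisin that closes the ring, had no peak within 1 kb of either end of its span in any library. No start was given for Rad21, so whether its leading site lies at one is unknown. That site, chr15:51990857-51992020, lay 1518 bp inside the upper end and also overlaps Gm52217. STAG2 folds were 12.6 and 7.67 in quiescent cells, against 8.57 and 5.80 in proliferating cells. STAG1 folds were 4.50 and 3.84 in quiescent cells, with no peak in proliferating replicate 1 and 6.0 in proliferating replicate 2. CTCF was called in neither quiescent library and in both proliferating ones, at folds of 4.24 and 3.67, percentiles 6.73 and 2.97 of their lists. Inside their own lists the STAG2 peaks lay at percentiles 34.5 to 62.5 and the STAG1 peaks at 3.26 to 39.1.

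The STAG genes both carried strong shared sites. At Stag2, the gene of the variable subunit lost in bladder cancer, the site chrX:42148617-42151094 spans the lower end of the gene and led all member sites, at a mean percentile of 93.6. STAG2 folds there were 51.0 and 36.7 in quiescent cells, against 33.7 and 31.7 in proliferating cells. STAG1 folds were 32.0 and 24.0 in quiescent cells, against 25.3 and 32.3 in proliferating cells. CTCF folds were 58.3 and 45.7 in quiescent cells, against 47.7 and 40.3 in proliferating cells. All lists ranked it at percentile 84.5 or above. The 12 main summits lay within 57 bp, from 48 to 105 bp outside the gene's lower end. A second site, chrX:42151986-42152436, began 2689 bp inside that end and was called in all 4 STAG2 libraries and in none of the others. Its STAG2 folds were low, 7.48 and 6.98 in quiescent cells, against 5.99 and 5.99 in proliferating cells.

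Stag1, the gene of the alternative subunit, had its leading site at chr9:100642354-100644759, around the start given by the promoter table, which lies inside the longer span of the gene table. STAG2 folds were 28.7 and 18.0 in quiescent cells, against 23.5 and 17.5 in proliferating cells. STAG1 folds were 32.4 and 32.0 in quiescent cells, against 21.0 and 20.1 in proliferating cells. CTCF folds were 29.0 and 21.6 in quiescent cells, against 21.3 and 29.1 in proliferating cells. Folds of separate lists are not tested against each other here. Every library ranked the site between percentiles 78.0 and 91.5 of its list. The 12 summits kept within 72 bp, and the other 7 sites of the Stag1 window, the widest window of all, were CTCF-only.

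Nipbl, the gene of the cohesin loader, had no peak within 1 kb of either end of its span in any library. No start was given for Nipbl, so whether its leading site lies at one is unknown. That site lay inside the span, at chr15:8443592-8446424, and overlaps LOC102634078. There CTCF and the STAG proteins ranked differently inside their own lists. CTCF folds of 24.2 and 22.6 in quiescent cells, against 29.8 and 29.8 in proliferating cells, span percentiles 84.0 to 88.9 of their lists. STAG2 folds of 10.8 and 8.0 in quiescent cells, against 6.91 and 6.0 in proliferating cells, lie lower, and so do STAG1 folds of 7.17 and 9.01 in quiescent cells, against 6.34 and 8.67 in proliferating cells; together the STAG values span percentiles 30.2 to 57.7. CTCF and STAG1 main summits shared a stretch 19796 to 19842 bp inside the upper end, and 3 of the 4 STAG2 summits fell there as well; that of STAG2 proliferating replicate 1 lay at 21391 bp.

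Among the release factors, the PDS5 genes and Wapl stood at opposite ends. Pds5b had its leading site at chr5:150672968-150674801, over the promoter printed above, and the site also touches Gm40353. STAG2 folds were 40.3 and 34.2 in quiescent cells, against 29.8 and 28.8 in proliferating cells. STAG1 folds were 38.5 and 33.0 in quiescent cells, against 35.8 and 37.3 in proliferating cells. CTCF folds were 46.3 and 28.8 in quiescent cells, against 38.8 and 41.8 in proliferating cells. Every library ranked it between percentiles 89.5 and 95.3 of its list, the narrowest range of the 10 genes. Another site called by all libraries, chr5:150664874-150666186, lay within the 10 kb before Pds5b but overlaps N4bp2l2, with folds of 14.1 to 37.6.

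Pds5a had its leading site at chr5:65696577-65698749, across its start. STAG2 folds were 35.1 and 36.2 in quiescent cells, against 40.4 and 31.3 in proliferating cells. STAG1 folds were 32.8 and 29.4 in quiescent cells, against 42.4 and 15.0 in proliferating cells. CTCF folds were 40.0 and 37.0 in quiescent cells, against 31.9 and 35.4 in proliferating cells. In most STAG libraries the main summit stood apart from the CTCF summits. All 4 CTCF summits lay at -53 to 10 from the first base. In 6 of the 8 STAG libraries the main summit lay at 1284 to 1330, inside the gene. In the other 2 (STAG2 quiescent replicate 1 and STAG1 proliferating replicate 2) it lay at 220 and -75. A second, lower STAG2 summit lay nearer the start in quiescent replicate 2 (257, fold 22.8) and proliferating replicate 1 (157, fold 21.4). For STAG1 the same was seen in quiescent replicate 2 (178, fold 16.2) and proliferating replicate 1 (291, fold 21.7). Each CTCF peak of the site covered both stretches.

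Wapl, whose product opens the ring, had its leading site at its start, chr14:34673256-34674898. The site was weak and also overlaps 5830448L01Rik, a long noncoding RNA gene. STAG2 folds were 7.80 and 6.20 in quiescent cells, against 6.65 and 6.20 in proliferating cells. STAG1 folds were 4.50 and 6.0 in quiescent cells, with no peak in proliferating replicate 1 and 6.20 in proliferating replicate 2. CTCF folds were 4.03 and 5.00 in quiescent cells, against 3.25 and 4.31 in proliferating cells, none above percentile 15.2 of its list. Wapl also held more sites than any other member window, 14, of which 10 were CTCF-only.

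Ctcf had peaks of its own product. Its leading site, chr8:105635993-105637808, covers the start and also the long noncoding RNA gene Gm5914. STAG2 folds were 30.1 and 23.3 in quiescent cells, against 20.3 and 17.6 in proliferating cells. STAG1 folds were 23.3 and 22.6 in quiescent cells, against 18.0 and 22.1 in proliferating cells. CTCF folds were 43.6 and 35.3 in quiescent cells, against 30.7 and 45.6 in proliferating cells. CTCF ranked the site between percentiles 88.5 and 95.2, and STAG2 and STAG1 between 77.1 and 89.8. The 12 summits lay at 217 to 319 inside the gene. A further site called by all libraries, chr8:105685544-105686440, began 2622 bp beyond the far end of Ctcf and overlaps Carmil2 and Gm33578, with folds of 15.5 to 52.4.

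**Figure D2:**
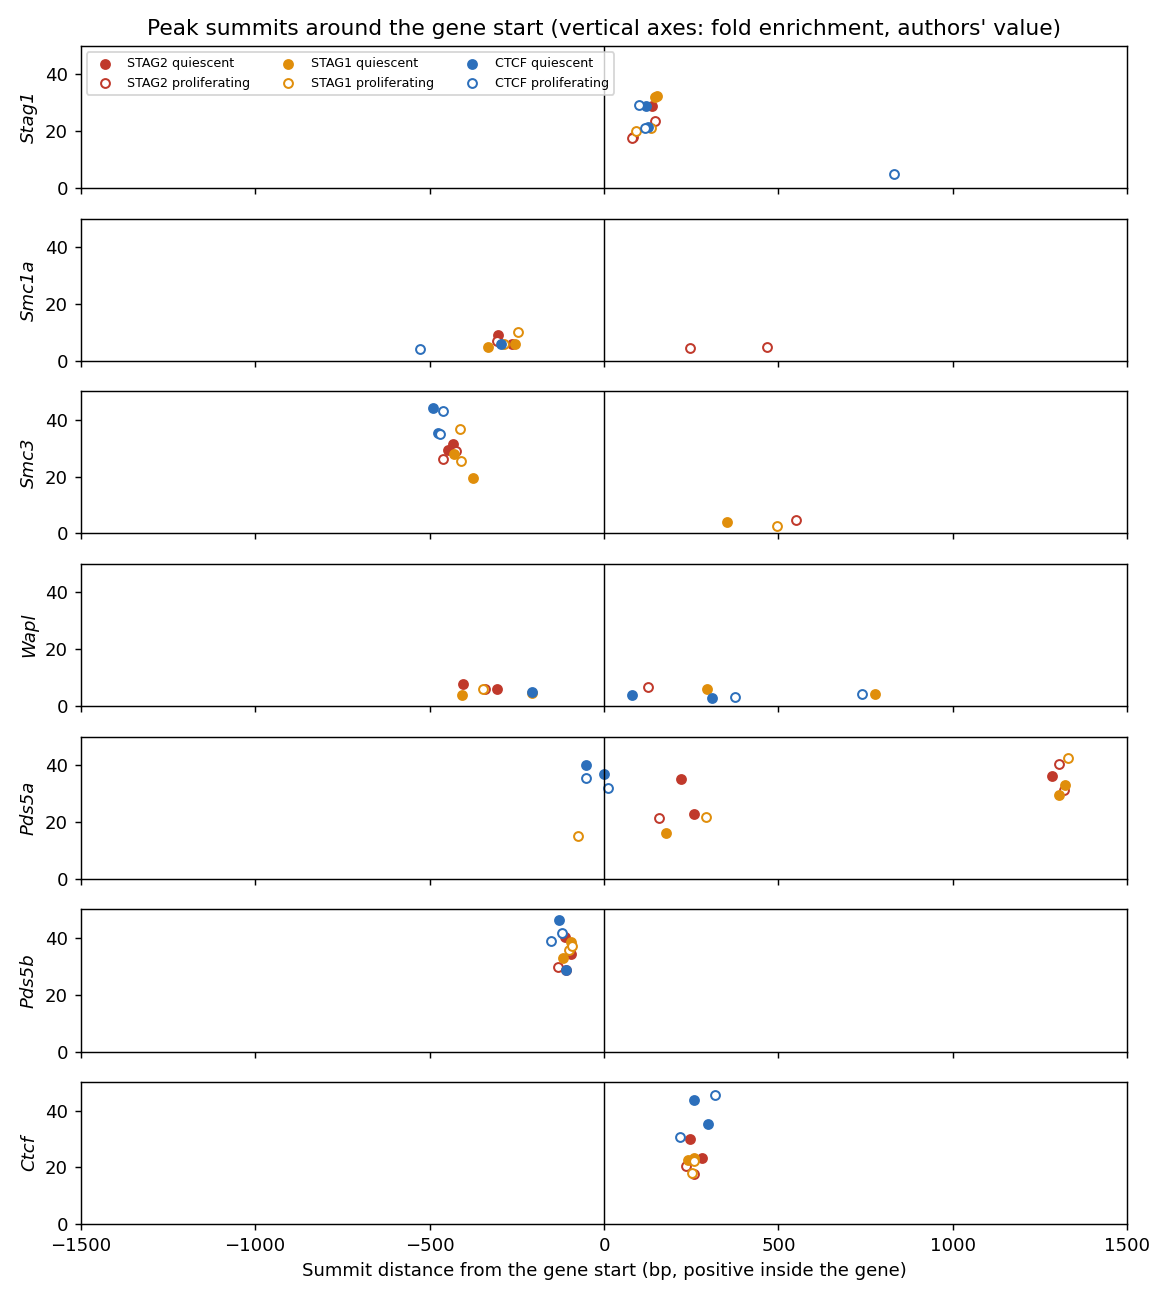
Position of each peak summit within 1500 bp of the first transcribed base (horizontal axis, bp, positive inside the gene) and its fold enrichment (vertical axis, the authors' value) for the 7 genes with a start in the promoter table; filled points are quiescent, open points proliferating libraries. Summits of Pds5b gather upstream at -153 to -92 and those of Ctcf inside the gene at 217 to 319. At Pds5a most STAG summits of highest fold lie at 1284 to 1330, away from the CTCF summits, and lower STAG summits lie nearer the start.

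Ordered by the mean percentile of the leading site, the genes ran from Stag2 (93.6), Pds5b (93.5), Pds5a (92.0), Smc3 (91.0), Ctcf (87.6) and Stag1 (85.9) to Nipbl (59.0), Smc1a (25.0), Wapl (21.0) and Rad21 (21.0). The first 6 overlap one another in their library values, as do the last 3. In all 8 STAG libraries each of the first 6 ranked above each of the last 4. CTCF quiescent replicate 1 kept that order too, and in the other 3 CTCF libraries Nipbl exceeded Stag1. This division was drawn after the values were seen and carries no test.

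**Figure D3:**
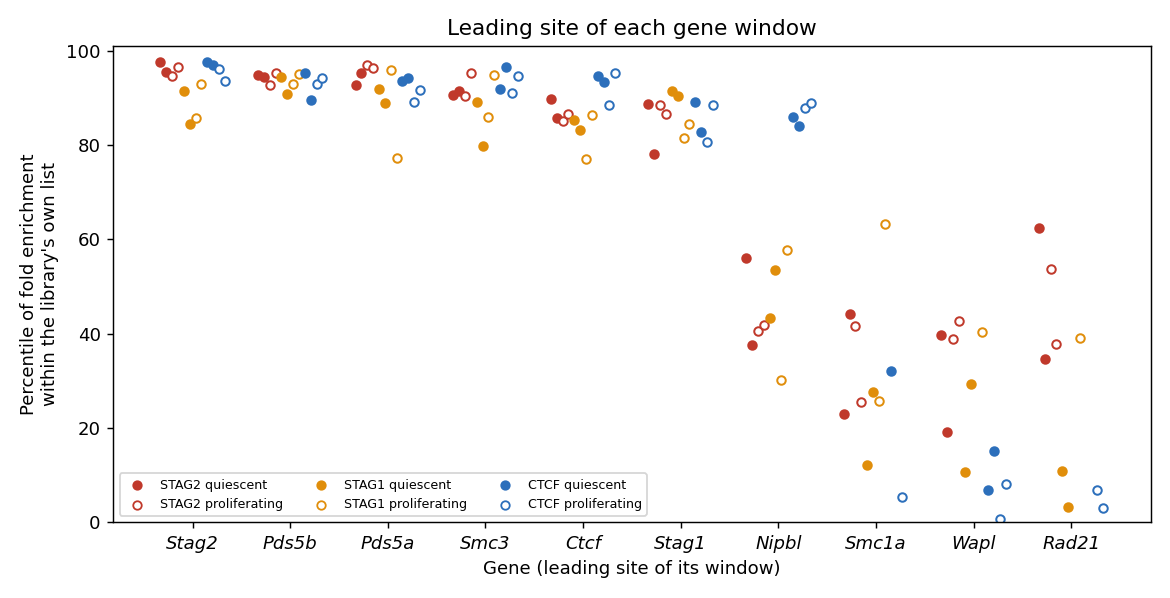
Percentile of the fold enrichment at each gene's leading site within the list of each library (vertical axis); filled points are quiescent and open points proliferating libraries, and a missing point means no peak. Stag2 to Stag1 lie between 77.1 and 97.6, while at Nipbl CTCF lies at 84.0 to 88.9 and the STAG libraries at 30.2 to 57.7.

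Between the states, the number of peaks in the 10 windows overlapped for STAG2, STAG1 and CTCF alike. STAG2 had 18 and 17 peaks in quiescent cells, against 18 and 19 in proliferating cells, means of 17.5 ± 0.707 and 18.5 ± 0.707 (SD, n = 2 each) and a log2 ratio of -0.08. Over the whole STAG2 lists that ratio was -0.36. STAG1 had 17 and 20 peaks in quiescent cells, against 16 and 20 in proliferating cells, means of 18.5 ± 2.12 and 18.0 ± 2.83 (SD, n = 2 each), and a log2 ratio of 0.04, beside -0.29 over the lists. CTCF had 31 and 52 peaks in quiescent cells, against 30 and 31 in proliferating cells, means of 41.5 ± 14.8 and 30.5 ± 0.707 (SD, n = 2 each), and a log2 ratio of 0.40. It was 0.02 without CTCF quiescent replicate 2 and 0.77 without CTCF quiescent replicate 1. As a share of the list, the windows took 0.0469% and 0.0496% of STAG2 peaks in quiescent cells, against 0.0381% and 0.0417% in proliferating cells. For STAG1 the shares were 0.0478% and 0.0545% in quiescent cells, against 0.0412% and 0.0396% in proliferating cells. For CTCF they were 0.0598% and 0.0725% in quiescent cells, against 0.0521% and 0.0562% in proliferating cells. By this measure the states did not overlap for any of the 3 proteins, and the shorter quiescent STAG lists are the divisor. For CTCF, quiescent replicate 1 had 31 peaks in the shortest CTCF list, against 30 and 31 in proliferating cells. The order was not tested, and no share over other genes stands beside it.

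Gene by gene, no change in the number of peaks passed the test. The mean difference, quiescent minus proliferating, over the 3 proteins was tested over 18364 genes with a peak. The test was two-sided and exact, permuting quiescent and proliferating labels inside each antibody, with Benjamini-Hochberg adjustment. It takes the libraries of the 3 antibodies as independent, and whether they shared cultures is not known here. If they did, the exact p-values would be too small. The test called 0% of these genes at an adjusted p below 0.05, and 2.29% (421 genes) had an unadjusted p below 0.05. The smallest exact p this design allows is 0.00926, and 47 genes reached it. After adjustment over 18364 genes, no gene could pass unless far more genes reached that p. The adjusted result therefore cannot tell a change from no change at a single gene. The 10 members had adjusted p of 1 by this permutation test and unadjusted p of 0.222 to 1. Their median difference was 0.33 peaks, beside -0.17 over all genes tested, with 5 higher, 3 lower and 2 at 0.

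Wapl had the largest difference of the 10, 1.83 peaks more in quiescent cells (exact p = 0.222), and most of it was CTCF. Its CTCF peaks were 6 and 12 in quiescent cells, against 4 and 7 in proliferating cells, which overlap. The difference was 0.83 without CTCF quiescent replicate 2 and 2.83 without CTCF quiescent replicate 1. STAG1 peaks at Wapl were 2 and 4 in quiescent cells, against 0 and 2 in proliferating cells. Part of this STAG1 count comes from 1 site cut into several peaks. The leading site of Wapl held 2 and 2 STAG1 peaks in quiescent cells, against 0 and 1 in proliferating cells. For CTCF, both quiescent libraries exceeded both proliferating ones at Stag1 (quiescent 5 and 7 peaks, proliferating 4 and 2), Pds5a (quiescent 5 and 6, proliferating 4 and 4) and Ctcf (quiescent 3 and 5, proliferating 2 and 2), 3 of 10 genes, where 9.09% of all genes tested did so. The opposite order of CTCF was met by 0 of 10 (6.01% of all genes tested). More peaks in both quiescent libraries were found at 0 of 10 genes for STAG2 (1.79% of all) and at 0 of 10 for STAG1 (1.29% of all). Fewer STAG2 peaks in both quiescent libraries were also found at 0 of 10 (15.4% of all). With 2 against 2 libraries such an order has an exact p of 0.333 and cannot pass the threshold. Member windows were also longer than those of all genes (medians of 104062 and 37146 bp), so these shares are not like for like.

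Nipbl leaned the other way, with a difference of -0.83 peaks (exact p = 0.537). Its STAG1 peaks were 2 and 2 in quiescent cells, against 4 and 4 in proliferating cells, and it was 1 of 10 genes with this order, which 11.3% of all genes tested showed. CTCF peaks at Nipbl were 1 and 6 in quiescent cells, against 4 and 4 in proliferating cells. Without CTCF quiescent replicate 2 the difference was -1.67 and the unadjusted exact permutation p was 0.0463, while without CTCF quiescent replicate 1 the difference was 0, so the quiescent CTCF libraries decide the value. In both states part of the STAG1 count comes from 1 site cut into several peaks: the leading site held 2 and 2 STAG1 peaks in quiescent cells, against 3 and 2 in proliferating cells.

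**Figure D4:**
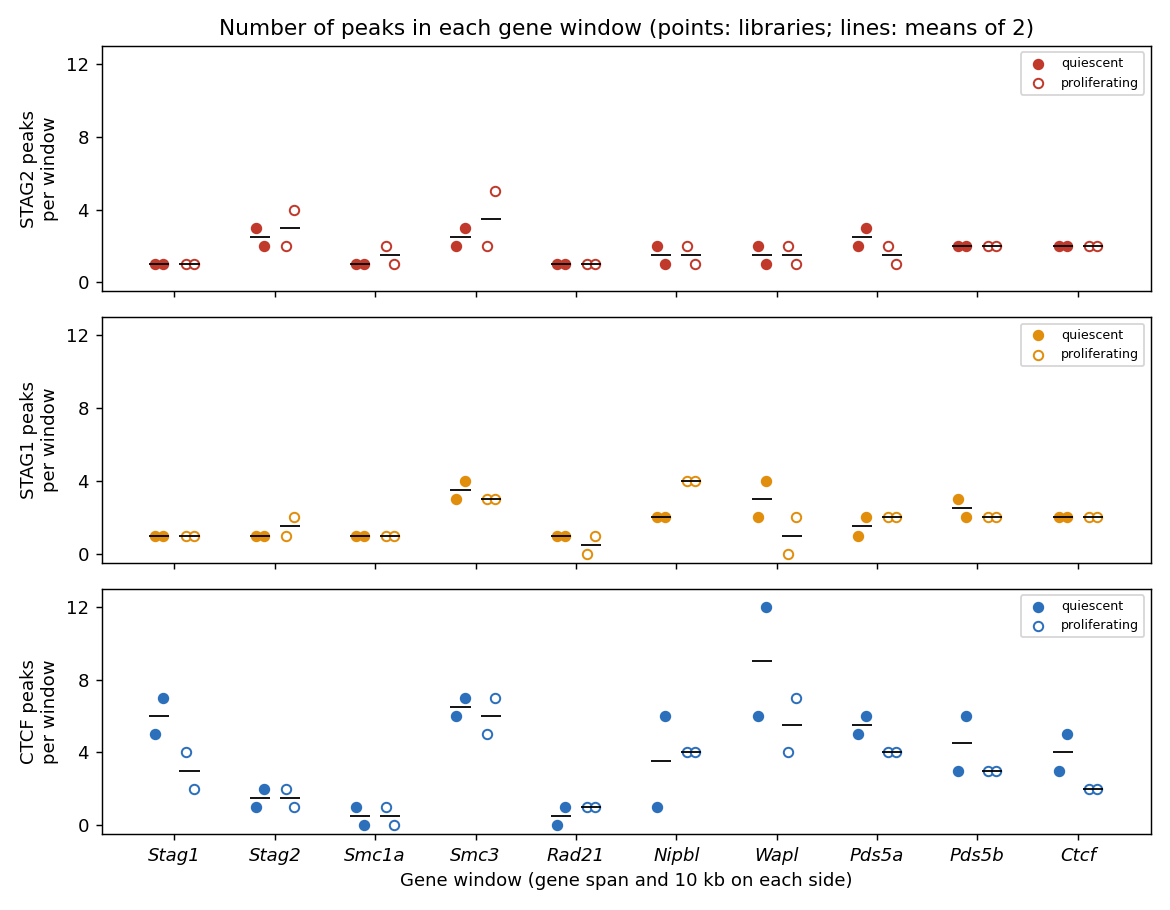
Number of peaks (vertical axis) of STAG2, STAG1 and CTCF in the window of each gene; filled points are the 2 quiescent libraries, open points the 2 proliferating libraries, and lines their means. STAG values mostly overlap between states, the quiescent STAG1 points lie below the proliferating ones at Nipbl, and the highest CTCF point is Wapl in quiescent replicate 2, at 12.

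Site by site, a site counted as lost when both proliferating and no quiescent library of an antibody called it, and as gained in the reverse case. For STAG2, 0 of 15 sites were lost, where 9.59% of all STAG2 sites of the genome were, and 1 of 15 was gained (1.53% of all). The gained one lies 6912 bp beyond the upper end of Pds5a, at chr5:65705148-65705716, with STAG2 folds of 8.73 and 7.92 in quiescent cells and no STAG1 peak in any library. CTCF was called there in both states, at 10.9 and 12.4 in quiescent cells, against 14.3 and 6.04 in proliferating cells. With 1 library left out the STAG2 counts moved: 2 sites were lost without STAG2 proliferating replicate 1, and 2 were gained without STAG2 quiescent replicate 2.

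For STAG1, 1 of 15 sites was lost (7.19% of all) and 0 of 15 were gained (1.05% of all). The lost one, chr15:8279844-8280433, lies below the lower end of Nipbl in Gm52208 and had STAG1 folds of 5.75 and 9.10 in proliferating cells, with no other peak. Without STAG1 proliferating replicate 1, 3 STAG1 sites were lost, and gains numbered 1 without STAG1 quiescent replicate 1 and 3 without STAG1 proliferating replicate 2.

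For CTCF, 3 of 32 sites were lost (3.79% of all), 1 of them the Rad21 site above. The other 2 lie near the ends of Nipbl, chr15:8291151-8291778 with folds of 6.67 and 9.39 in proliferating cells, and chr15:8467026-8467501 with 5.49 and 4.49 in proliferating cells. Gains of CTCF numbered 4 of 32 (6.59% of all), 1 each at Stag1 (chr9:100769986-100770496), Smc3 (chr19:53631920-53632455), Wapl (chr14:34680175-34680688) and Ctcf (chr8:105662205-105662643). All 4 lie inside the gene span, are CTCF-only, and have folds of 4.00 to 10.7. They require a peak in quiescent replicate 2, the longest list, and without CTCF quiescent replicate 1 the gains numbered 23. Without CTCF proliferating replicate 2 there were 7 gains, and losses numbered 5 without CTCF quiescent replicate 2 or CTCF proliferating replicate 1.

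Comparing the STAG proteins, 2 of 16 sites in quiescent cells had both STAG2 libraries and neither STAG1 library (6.88% of all sites), and 1 of 16 had the reverse (6.15%). The STAG2 ones were the second Stag2 site and the gained site beyond Pds5a. The STAG1 one, chr19:53643978-53644683 near the upper end of Smc3, had STAG1 folds of 8.48 and 4.70 in quiescent cells. CTCF was called there in all 4 libraries, at 10.3 and 18.7 in quiescent cells, against 12.7 and 19.2 in proliferating cells. In proliferating cells 1 of 15 sites had STAG2 without STAG1 (5.4% of all sites), again the second Stag2 site, and 1 of 15 had STAG1 without STAG2 (3.91%), the Nipbl site named above. Without STAG1 quiescent replicate 1 the quiescent STAG1-only sites numbered 2, and without STAG1 proliferating replicate 1 the proliferating ones numbered 3. Proliferating STAG2-only sites numbered 2 without STAG2 proliferating replicate 1 and 3 without STAG1 proliferating replicate 2. Quiescent STAG2-only sites numbered 3 without STAG2 quiescent replicate 2. All 4 STAG libraries of the state called 13 of the 16 quiescent sites (81.25%, beside 69.98% of all sites). The same held for 11 of the 15 proliferating sites (73.33%, beside 69.29% of all sites).

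Most STAG peaks of the 10 genes matched CTCF, that is, both CTCF lists of that state held an overlapping peak. For STAG2 the share was 74.5% ± 11.1 in quiescent cells and 73.1% ± 6.62 in proliferating cells (SD, n = 2 each). Over all STAG2 peaks it was 65.6% ± 2.85 in quiescent cells and 60.1% ± 2.07 in proliferating cells. For STAG1 the share was 75.7% ± 1.04 in quiescent cells and 78.1% ± 4.42 in proliferating cells, beside 70.5% ± 1.15 in quiescent cells and 65.3% ± 9.76 in proliferating cells over all STAG1 peaks (SD, n = 2 each). In the member windows the states differed by less than the SD of the wider group for both proteins. Over all peaks that held for STAG1 but not for STAG2, whose states differed by more than either SD.

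Of the 42 CTCF-only sites, 6 were called in all 4 CTCF libraries and 23 in 1 library. The strongest lies in Smc3, at chr19:53637941-53638546, with CTCF folds of 26.9 and 39.9 in quiescent cells, against 9.92 and 15.0 in proliferating cells. Next came chr5:65667522-65668186 in Pds5a, with CTCF folds of 17.7 and 21.0 in quiescent cells, against 12.7 and 15.3 in proliferating cells. Every CTCF list ranked the Smc3 site between percentiles 58.2 and 95.3 and the Pds5a site between 67.1 and 82.0, and none of the 8 STAG lists holds a peak there. These sites were named after their values were seen.

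Start occupancy was scored as a peak of both libraries of a group within 1 kb of the start, or of either gene end where no start was given. STAG2 occupied 8 of the 10 genes in quiescent and 8 in proliferating cells, where 55% of all genes were occupied in each state. STAG1 occupied 8 in quiescent cells (47.1% of all genes) and 7 in proliferating cells (48.8%), Wapl being the difference. CTCF occupied 7 in quiescent cells (44.9%) and 7 in proliferating cells (49%). Rad21 and Nipbl were not occupied in any group, and Smc1a not by CTCF. No start was given for Rad21 and Nipbl, so only the ends of their spans were scored. A start inside the span, as Stag1 has, would have been missed. A peak of every library was present at the start or ends of 6 genes (35.7% of all genes), and a site of all 12 libraries in the window of 7 (57% of all genes). The windows were long, with a median of 104062 bp, beside 37146 bp for all genes.

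Of 24 other genes of the cohesin and CTCF pathway, 17 (70.8%) were occupied at the start or ends by STAG2 in quiescent and 17 (70.8%) in proliferating cells, beside 55% of all genes in each state. STAG1 occupied 16 (66.7%, beside 47.1% of all genes) in quiescent and 15 (62.5%, beside 48.8%) in proliferating cells. CTCF occupied 12 (50%, beside 44.9%) in quiescent and 13 (54.2%, beside 49%) in proliferating cells, which is near the share over all genes. The strongest was Haspin, a histone kinase of mitotic centromeres that binds PDS5, with folds of 35.4 to 92.3 over the 12 libraries and a mean percentile of 98.2, above the leading site of every member. Ddx11, a DNA helicase of sister chromatid cohesion, followed at 83.1. Next were Maz (81.7) and Zfp143 (76.3), zinc finger proteins reported at loop anchors. No peak was called at Smc1b, Rec8 and Rad21l, the genes of meiotic cohesin subunits, or at Espl1, the gene of separase. Stag3, the gene of the meiotic STAG protein, had STAG2 peaks in 4 libraries, STAG1 peaks in 2 and no CTCF peak, with folds of 3.57 to 7.25; it is named after its values were seen.

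Condensin and the SMC5/6 complex are the other SMC complexes of the cell. All 12 of their genes examined were occupied by STAG2 (55% of all genes in each state) and by STAG1 (47.1% of all genes in quiescent and 48.8% in proliferating cells) in both states. CTCF occupied 7 of the 12 (58.3%, beside 44.9% of all genes) in quiescent and 10 (83.3%, beside 49%) in proliferating cells.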

How the data were processed

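ChIP-seq peak lists of 12 libraries were used, and members and gene lists were chosen with earlier results of these data known. Tools and build were MACS2, BWA, HOMER, Picard, bcl2fastq and mm10, per the submitters' processing notes, with tool versions not given in the sources used here. Lists were deposited per library, so replicates had not been pooled. The columns deposited by the authors are a fold enrichment (a linear ratio over the control), a -log10 p-value and -log10 q-value, a score, and the summit's offset as another column. The lowest -log10 q-value of a list lay between 1.31 and 1.57 in the deposited files. A sample titled input but labelled with IgG was not analysed here, so which of these the fold refers to is not settled.

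Gene spans came from the RefSeq gene table (GRCm38.p6, same coordinates as mm10), which gives no strand and no exons, so exons, introns and UTRs are not named. Starts came from the RefSeq promoter table for 17492 genes, and gene ends within 1 kb were used otherwise. Peaks were merged into sites where they shared 1 bp. A site was called lost, gained or kept only where both libraries of 1 state called it. Peak counts per gene were tested by exact permutation of the state within antibody, with Benjamini-Hochberg adjustment over genes, and the test was first tried on simulated data. Replicates are labelled as biological; with 1 cell line, p-values measure only the spread between these libraries. Read depth is unknown. Named sites were the highest-ranked site by mean fold percentile, the start site, and each lost, gained or single-STAG site of a member; of the pathway list, the 4 genes with the highest mean fold percentile and each without a peak were named. Alternatives were the 20000 peaks of highest -log10 p-value, a -log10 q-value of at least 5, spans alone or with 20 kb, overlap of 0.5 of both peaks, covered bases, log2(number + 1), start windows of 2 kb, each library left out and, added after seeing the data, gene ends for every gene and the CTCF-only sites with each library left out. Python 3.11.15, numpy 2.4.6, pandas 2.3.3 and matplotlib 3.10.9 were used.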

Additional observations from a re-analysis of the deposited data

How the results depend on the processing

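Start occupancy of the 10 genes stayed within 1.5 times under every alternative tried, and 1 of 190 member tests under 19 alternatives had p below 0.05. With the 20000 best peaks of each list, the STAG2 log2 ratio was 0.18. CTCF gains numbered 1, and STAG2 gains, STAG1 losses and CTCF losses 0. Quiescent STAG2-only sites numbered 1, and the other single-STAG classes 0. Shares of peaks with CTCF were 87.8% and 90.9% for STAG2 and 100% and 100% for STAG1 (quiescent, then proliferating). Pathway genes occupied numbered 7 (STAG2 proliferating), 8 (STAG1 quiescent), 7 (STAG1 proliferating), 6 (CTCF quiescent) and 8 (CTCF proliferating). The Nipbl difference turned to 0.17. At a -log10 q of at least 5, the STAG2 ratio was 0.23, Stag2 turned to 0.17 and Smc1a to 0.33, and shares were 79.9% (STAG2 proliferating) and 72.5% (STAG1 quiescent). With gene spans alone, STAG2 gains and STAG1 losses numbered 0, quiescent STAG2-only sites 1 and proliferating STAG1-only sites 0, and the quiescent STAG1 share was 81.0%. With 20 kb, the STAG2 ratio was -0.17, proliferating STAG2-only sites numbered 2, and proliferating shares were 63.4% (STAG2) and 70.5% (STAG1). By covered bases the STAG2 log2 ratio was 0.021, and by share of the list 0.28 for STAG2 and 0.34 for STAG1. With an overlap of at least 0.5 of both peaks, STAG1 gains numbered 1, quiescent STAG1-only and proliferating STAG2-only sites 2 each, and shares were 54.2% and 56.7% (STAG2) and 55.3% and 49.4% (STAG1) in quiescent and proliferating cells. Against any CTCF library, shares were 88.7% (STAG2 quiescent), 95.0% (STAG1 quiescent) and 89.4% (STAG1 proliferating). Except where fewer peaks or a narrower window set the count, the cause was not tested. With each library left out, STAG2 losses ranged from 0 to 2 and gains from 1 to 2, STAG1 losses from 1 to 3 and gains from 0 to 3, and CTCF losses from 3 to 5 and gains from 4 to 23. Sites with CTCF alone, recounted after seeing the data, ranged from 23 to 44. Single-STAG sites ranged from 2 to 3 (quiescent STAG2), 1 to 2 (quiescent STAG1), 1 to 3 (proliferating STAG2) and 1 to 3 (proliferating STAG1), STAG1 shares from 75.0% to 84.1% (quiescent) and 75.0% to 83.8% (proliferating), and members with p below 0.05 from 0 to 1. Same-numbered libraries did not pair: their deviations correlated at 0.0304 (STAG2), -0.0116 (STAG1) and -0.0926 (CTCF) over 18364 genes. With the replicate block, 0 members had p below 0.05, Wapl kept 1.83 (exact sign-flip p = 0.125), and log2 ratios were -0.08 (STAG2), 0.04 (STAG1) and 0.40 (CTCF). Unknown read depth limits every absence stated, since a library may miss a weak site.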

Other observations

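Hdac8, which encodes the deacetylase that recycles SMC3, showed STAG peaks and no CTCF peak at its start. STAG1 was called there in all 4 libraries and STAG2 in 2, with folds of 3.99 to 11.0 over these 6 libraries and a mean percentile of 19.8. Stag3 was the other of the 24 pathway genes with a STAG peak and no CTCF peak. No share of all genes with this pattern stands beside them. Ctcfl, the gene of the testis relative of CTCF, had a peak at its ends in 4 libraries, 2 of STAG1 and 2 of CTCF, and none of STAG2, with folds of 4.49 to 5.99. These genes were named after their values were seen.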
